A study of Homo sapiens with 6 samples.

Results

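The genes that write, copy and remove DNA methylation were examined in BT-549 cells, an established mesenchymal triple-negative breast cancer (TNBC) line, after silencing of the PBAF subunit PBRM1. The 9 genes were DNMT1, DNMT3A, DNMT3B, UHRF1, UHRF2, TET1, TET2, TET3 and TDG. They were taken by symbol from the 37887 rows of a raw-count table, and all 9 were among the 15450 genes that passed the filter on low counts. RNA-seq libraries were made from 3 samples labelled control shRNA and treated with DMSO (0.1%, the vehicle) and from 3 samples labelled shPBRM1 and treated with doxycycline (DOX, 500 ng/ml). The design text describes all cells as carrying a DOX-inducible PBRM1 shRNA, whereas the titles name a control shRNA, and the silenced group rests on 1 inducible vector, kept in puromycin-selected cells of 1 line. Effects of DOX and of PBRM1 silencing cannot be told apart in these libraries.

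DNA methylation in mammals is laid down at CpG dinucleotides and has to be copied each time the genome is replicated. DNMT1 is the maintenance enzyme, and UHRF1 brings it to hemimethylated DNA behind the replication fork. DNMT3A and DNMT3B methylate sites that carried no mark before. The TET enzymes oxidize methylcytosine, and TDG is the glycosylase that cuts out the oxidized bases so that base excision repair can restore an unmethylated cytosine. UHRF2 resembles UHRF1 in domain structure but does not replace it in maintenance. DNMT1 and UHRF1 are classed with the genes that E2F factors activate at the start of S phase.

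PBRM1 itself fell from 158.3 ± 2.30 CPM (counts relative to the library total after TMM scaling; SD, n = 3) to 41.95 ± 1.22 CPM (SD, n = 3), so the targeted gene was low in every library labelled shPBRM1. Total counts were between 36429395 and 65096297 per library. ESR1 and PGR, the hormone receptors that this class of tumor lacks, had at most 12 counts in any library, and VIM, a mesenchymal marker, was near 621 CPM in the control group. ERBB2, whose amplification this class also lacks, was at 51.3 CPM in the control group. Of 5 genes marking blood, vessel or liver cells, the T cell gene CD3E had 0 counts in every library and PTPRC, a blood cell gene, was the only one tested. PTPRC had between 26 and 44 counts in control and between 4 and 12 in shPBRM1 libraries and was called lower, and the summed level of the 5 was between 0.804 and 1.71 CPM in control and between 0.235 and 0.411 CPM in shPBRM1 libraries. Their part in the results was not tested.

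Some promoters of the 9 genes are shown here because DNMT1 and UHRF1 belong to the E2F-type genes. RefSeq lists 20 windows for them (GRCh38.p14, each from 250 bases before to 50 bases after a transcription start). The letters TTTCCCGC, TTTGGCGC, TTTCGCGC and TTTGCCGC, which are forms of the E2F site, were searched on both strands. Only DNMT1 and UHRF1 held a match among the 9 genes. All windows listed for DNMT1, UHRF1 and DNMT3B lie within the annotated genes. The bases around the most upstream annotated starts of these genes were thus not searched. Over all 35116 windows, 3.31% held one, as did 3.99% of the 27305 genes when all windows of a gene were counted. Of the 16 listed S-phase genes with a window, 11 held one. In the next sequences, written 5′ to 3′ on the strand of the gene, capitals mark the matching letters.
DNMT1, chr19:10194904-10195203, minus strand: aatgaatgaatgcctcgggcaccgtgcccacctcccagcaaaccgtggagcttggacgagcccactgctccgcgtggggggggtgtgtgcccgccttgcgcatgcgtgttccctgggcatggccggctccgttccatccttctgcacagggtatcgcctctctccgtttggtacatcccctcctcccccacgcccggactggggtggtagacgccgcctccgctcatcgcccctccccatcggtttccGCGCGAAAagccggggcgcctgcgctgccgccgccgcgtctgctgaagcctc
UHRF1, first window, chr19:4909251-4909550, plus strand: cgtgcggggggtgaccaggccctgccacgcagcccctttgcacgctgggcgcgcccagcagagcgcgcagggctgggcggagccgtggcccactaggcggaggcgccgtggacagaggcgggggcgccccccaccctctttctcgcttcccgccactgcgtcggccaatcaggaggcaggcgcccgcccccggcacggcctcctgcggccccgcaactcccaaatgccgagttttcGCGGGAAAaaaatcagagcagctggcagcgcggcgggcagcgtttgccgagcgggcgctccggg
UHRF1, second window, chr19:4909894-4910193, plus strand: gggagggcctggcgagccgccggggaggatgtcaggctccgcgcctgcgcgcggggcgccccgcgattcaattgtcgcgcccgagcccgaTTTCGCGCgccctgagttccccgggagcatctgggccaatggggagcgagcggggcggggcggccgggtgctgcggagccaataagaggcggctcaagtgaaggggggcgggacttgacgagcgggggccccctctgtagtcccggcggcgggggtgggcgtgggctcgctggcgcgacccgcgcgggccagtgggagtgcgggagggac
The match began 2 bases before the listed start in DNMT1. In UHRF1 it began 14 bases before the start in the first window and 160 bases before it in the second. A match of letters is a description and not a site of binding.

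CpG content differed widely between the same windows. The only window listed for DNMT3B held 3 CpG, and 18.2% of all windows held fewer. It lies within the annotated gene, which starts at position 32762385 of chromosome 20, so it is not the window of the most upstream start. The first TET3 window held 45 CpG, and 96.5% of all windows held fewer; it lies before the annotated start of the gene at position 73986404 of chromosome 2. These windows are shown because DNMT3B and TET3 had the largest increases of the 9 genes, and capitals mark each CpG.
DNMT3B, chr20:32779602-32779901, plus strand: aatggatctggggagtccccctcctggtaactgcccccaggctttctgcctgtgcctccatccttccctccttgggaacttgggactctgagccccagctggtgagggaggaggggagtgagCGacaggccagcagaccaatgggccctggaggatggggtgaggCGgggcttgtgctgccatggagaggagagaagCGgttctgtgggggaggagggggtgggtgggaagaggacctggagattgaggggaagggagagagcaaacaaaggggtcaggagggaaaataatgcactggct
TET3, chr2:73984660-73984959, plus strand: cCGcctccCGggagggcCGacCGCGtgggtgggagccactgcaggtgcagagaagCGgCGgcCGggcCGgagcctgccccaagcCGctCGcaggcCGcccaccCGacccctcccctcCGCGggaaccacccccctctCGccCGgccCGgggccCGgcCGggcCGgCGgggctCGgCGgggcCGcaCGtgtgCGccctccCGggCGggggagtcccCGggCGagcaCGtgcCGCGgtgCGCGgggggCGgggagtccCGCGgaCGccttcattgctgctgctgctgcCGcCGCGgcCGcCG
The median window held 14 CpG. DNMT1 had 30, UHRF1 between 36 and 46, TDG 22 and TET1 between 6 and 11 in its 3 windows. The TET1 windows with 6 and 11 CpG lie within the annotated gene, and the one with 10 CpG lies before its start. Windows of high and of low CpG content were thus both listed for genes that rose. Which start these cells used was not tested.

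In shPBRM1 cells, 6 of the 9 genes were higher, 1 was lower and 2 did not pass the test (edgeR's quasi-likelihood test, adjusted p under 0.05 over all tested genes). This has to be read against a broad response. Of all tested genes, 64.7% passed the same threshold, 31.5% as higher and 33.2% as lower, so the share of the 9 genes that passed (77.8%) is not far from the background. The direction was less even, with 66.7% of the 9 genes higher. Their median log2 fold change was 0.28, against -0.01 for all tested genes. With a fold change over 2 as well, DNMT3B alone remained, where 2.87% of all tested genes were higher and 9.68% lower by this rule, 12.6% in all. In a fit that blocked on the replicate number and corrected for GC content and length, called here the GC-corrected fit, 5996 genes were higher and 4175 lower, in place of 4863 and 5137, and 8 of the 9 genes were called, all as higher. The CPM values of the groups did not overlap for 8 of the 9 genes, which was also the case for 68.3% of all tested genes.

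**Figure D1:**
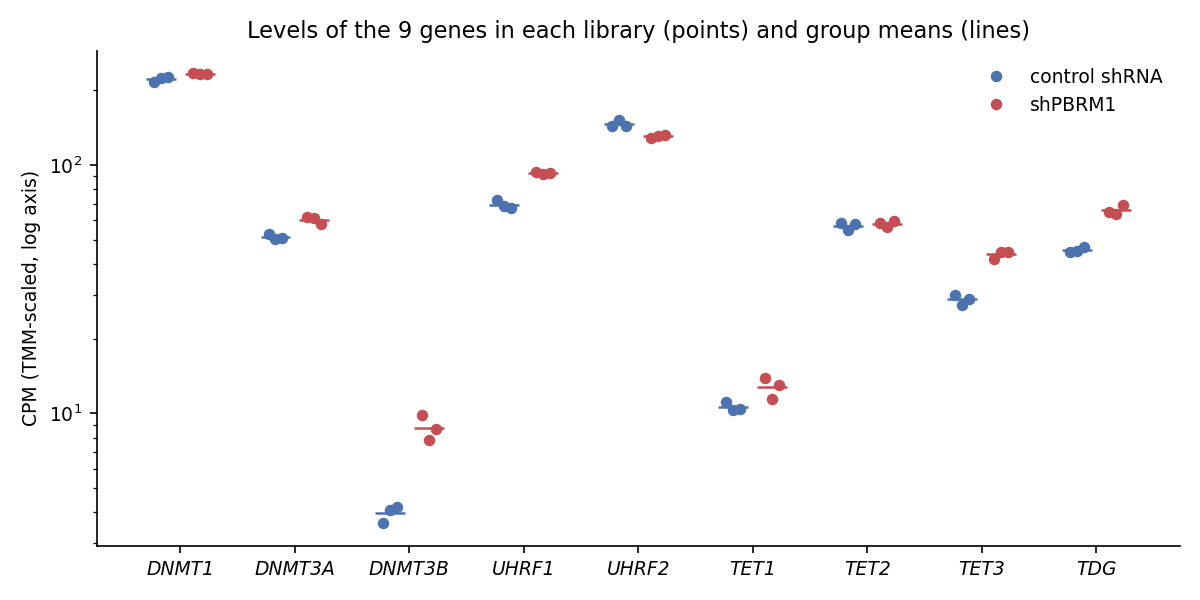
Levels of the 9 genes in CPM (log axis) in each of the 3 control shRNA (blue) and 3 shPBRM1 (red) libraries, with the group means as lines. The groups are apart for all genes but TET2, and the widest gap is that of DNMT3B, from a mean of 3.96 to 8.77 CPM.

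Among the methyltransferases, the change was largest for the least expressed. DNMT3B, a de novo enzyme with a low level in most differentiated cells, was at 3.62, 4.07 and 4.20 CPM in control replicates 1, 2 and 3 and at 9.81, 7.81 and 8.68 CPM in shPBRM1 replicates 1, 2 and 3. Every shPBRM1 library was above every control library, and the spread among shPBRM1 libraries was the wider. The log2 fold change was 1.14 ± 0.113 (SE; edgeR adjusted p = 2.72e-09), which lies at percentile 89.6 of all tested genes by size. The raw counts behind it were between 135 and 212 in control and between 304 and 589 in shPBRM1 libraries. DNMT3B lies on chromosome 20 from 32762385 to 32809356 (GENCODE v29, GRCh38), and no other annotated gene overlaps it.

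DNMT3A, the other de novo enzyme, was at 52.9, 50.5 and 50.9 CPM in control and at 61.7, 61.4 and 57.8 CPM in shPBRM1 libraries. The groups were apart, but the step was small, with a log2 fold change of 0.23 ± 0.0369 (SE; edgeR adjusted p = 4.40e-05). Per kilobase of exon, DNMT3B stood at 0.201 ± 0.0202 of the DNMT3A level in control and at 0.378 ± 0.0425 in shPBRM1 libraries (SD, n = 3 each). This ratio within a library does not depend on scaling between libraries. It was between 0.177 and 0.215 in control and between 0.331 and 0.413 in shPBRM1 libraries. DNMT3A lies on chromosome 2 from 25227855 to 25342590, and a microRNA gene, MIR1301, lies within it outside the exons.

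DNMT1 was the most abundant of the 9 genes in CPM and changed little. Its level was 216, 225 and 227 CPM in control and 234, 232 and 232 CPM in shPBRM1 libraries. All shPBRM1 values were above the control values by a narrow margin, and the log2 fold change of 0.06 ± 0.022 (SE; edgeR adjusted p = 0.127) did not pass the test. The interval of the difference from the spread of the replicates ran from 0.003 to 0.125 (95%, log2). In the GC-corrected fit it was 0.29 (edgeR adjusted p = 1.05e-09), the only one of 13 alternatives in which DNMT1 passed. The same fit gave DNMT3A 0.46 and DNMT3B 1.31, and it moved the median of all tested genes to 0.08. DNMT1 lies on chromosome 19 from 10133345 to 10231286 and shares 83 exonic bases with S1PR2 on the same strand, a gene with at most 630 counts.

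The pool of methyltransferase transcripts remained mostly DNMT1. Of the summed DNMT1, DNMT3A and DNMT3B counts per kilobase, DNMT1 made up 81.6% ± 0.516 in control and 77.5% ± 0.66 in shPBRM1 libraries (SD, n = 3 each). The DNMT3B share went from 3.07% ± 0.18 to 6.17% ± 0.634, and it was between 2.87% and 3.21% in control and between 5.54% and 6.80% in shPBRM1 libraries. The DNMT3A share was 15.4% ± 0.693 and 16.4% ± 0.462, with overlapping groups. The gain of DNMT3B within the pool was thus set against the DNMT1 share.

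**Figure D2:**
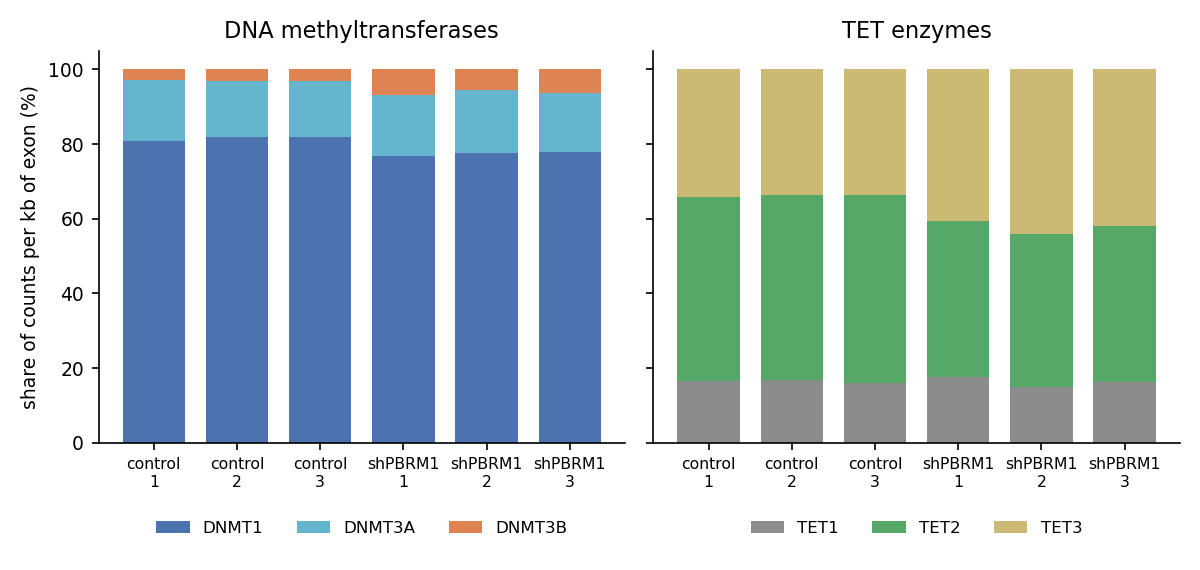
Share of each gene in the summed counts per kilobase of exon of the DNMT (left) and TET (right) families, as percent, in each library. DNMT3B is the thin top band on the left, 2.87% to 3.21% in control and 5.54% to 6.80% in shPBRM1 libraries, and on the right TET3 widens from about 33.8% to 42.2% as TET2 narrows.

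The UHRF genes moved in opposite directions. UHRF1, which reads hemimethylated CpG and recruits DNMT1, was at 72.1, 68.3 and 67.3 CPM in control and at 93.8, 91.7 and 92.8 CPM in shPBRM1 libraries. The shPBRM1 libraries were close to each other and well above control, with a log2 fold change of 0.42 ± 0.0316 (SE; edgeR adjusted p = 3.75e-10). UHRF2 was at 143.7, 151.1 and 144.2 CPM in control and at 129.0, 130.6 and 132.0 CPM in shPBRM1 libraries. It was the only one of the 9 genes that fell, with a log2 fold change of -0.165 ± 0.0251 (SE; edgeR adjusted p = 2.37e-04), and its groups were apart. In the GC-corrected fit UHRF2 was at -0.03 (edgeR adjusted p = 0.438), so its call is lost there, while UHRF1 was at 0.60.

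Per kilobase of exon, UHRF1 made up 47.7% ± 1.32 of the summed UHRF1 and UHRF2 counts in control and 57.8% ± 0.481 in shPBRM1 libraries (SD, n = 3 each). All control libraries were below 50% and all shPBRM1 libraries above it. Which of the genes is the more abundant depends on the length used, since the annotated exons of UHRF2 sum to 9919 bases but its longest transcript has 3723. By the longest transcript, UHRF2 was above UHRF1 in both groups. The ratio of UHRF1 to DNMT1, the reader to its enzyme, was 0.593 ± 0.0373 per kilobase in control and 0.760 ± 0.00572 in shPBRM1 libraries. UHRF1 lies on chromosome 19 from 4903080 to 4962154 and UHRF2 on chromosome 9 from 6413151 to 6507054. A UHRF2 pseudogene in the table, UHRF2P1, had at most 31 counts.

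Of the TET enzymes, TET3 rose the most. It was at 30.0, 27.4 and 28.9 CPM in control and at 42.0, 44.8 and 44.6 CPM in shPBRM1 libraries, with a log2 fold change of 0.61 ± 0.0483 (SE; edgeR adjusted p = 5.80e-10). The groups were far apart against their spread. TET1, the TET enzyme best known from embryonic stem cells, was at 11.1, 10.4 and 10.4 CPM in control and at 13.9, 11.4 and 13.1 CPM in shPBRM1 libraries. Its shPBRM1 replicate 2 was close to the control libraries, and the log2 fold change was 0.28 ± 0.0873 (SE; edgeR adjusted p = 0.00539).

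TET2, the most abundant TET transcript in control cells per kilobase, was at 58.4, 54.7 and 57.7 CPM in control and at 58.5, 56.2 and 59.7 CPM in shPBRM1 libraries. These groups overlapped, the only ones of the 9 genes to do so. The log2 fold change was 0.03 (adjusted p = 0.508, edgeR), and the 95% interval of the difference from the replicate spread ran from -0.075 to 0.141. In the GC-corrected fit it was 0.19 (edgeR adjusted p = 1.09e-04), and TET2 passed the test in that fit alone among 13 alternatives. TET2 has an annotated antisense gene, TET2-AS1, with at most 8 counts.

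Within the TET pool the balance moved from TET2 to TET3. TET2 made up 49.8% ± 0.435 of the TET counts per kilobase in control and 41.6% ± 0.434 in shPBRM1 libraries, and TET3 33.8% ± 0.263 and 42.2% ± 1.80 (SD, n = 3 each). The TET1 share was 16.5% ± 0.372 and 16.2% ± 1.39, with overlapping groups. The TET genes lie on chromosome 10 from 68560656 to 68694482 (TET1), on chromosome 4 from 105145875 to 105279816 (TET2) and on chromosome 2 from 73986404 to 74108176 (TET3).

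TDG, the glycosylase downstream of the TET enzymes, was at 44.7, 45.1 and 46.9 CPM in control and at 64.6, 63.7 and 68.8 CPM in shPBRM1 libraries. The groups were apart, with a log2 fold change of 0.53 ± 0.0403 (SE; edgeR adjusted p = 1.75e-10). It was the member least moved by the GC and length correction, at 0.56 in that fit. The pseudogene TDGP1 had at most 14 counts, so few reads were assigned to it, although reads shared with copies of TDG cannot be traced in these counts. TDG lies on chromosome 12 from 103965804 to 103988874. The summed DNMT counts per kilobase were 4.02 ± 0.208 times the summed TET counts in control and 3.62 ± 0.101 times in shPBRM1 libraries (SD, n = 3 each), a difference of -0.399 that was -0.259 in raw counts.

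**Figure D3:**
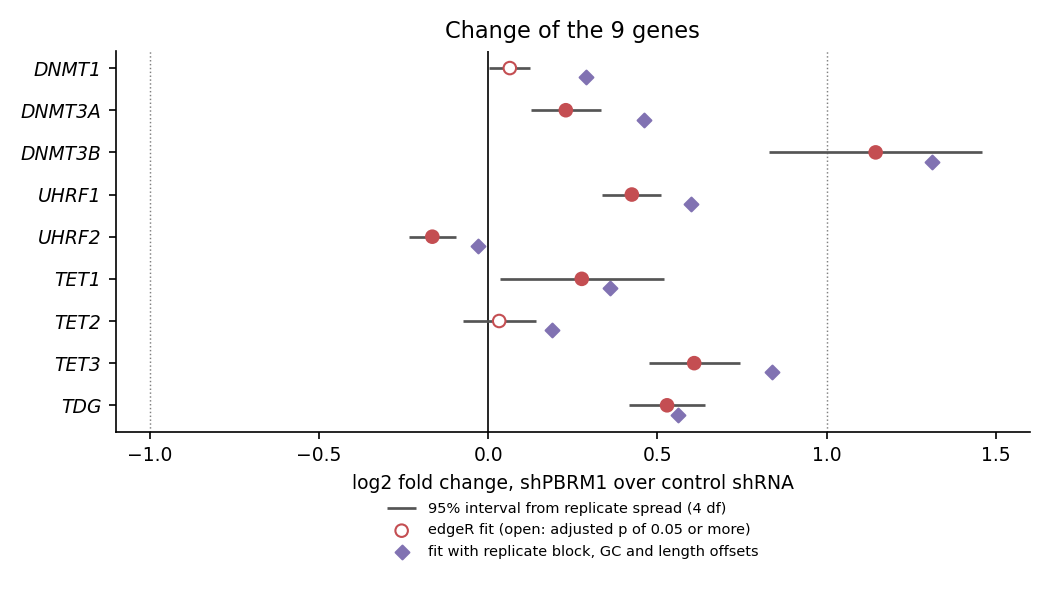
Log2 fold change of each gene in shPBRM1 relative to control shRNA libraries (circles, filled where the adjusted p was under 0.05), with the 95% interval from the replicate spread (lines) and the value after block and GC correction (diamonds, the GC-corrected fit). DNMT3B is the only gene past the dotted line at a fold change of 2, and the diamonds of DNMT1, UHRF2 and TET2 give another call than the circles.

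By level per kilobase of exon, the order in control libraries was DNMT1 (22.7 CPM per kb), UHRF2 (14.8), UHRF1 (13.5), TDG (9.29), DNMT3A (4.28), TET2 (3.46), TET3 (2.34), TET1 (1.14) and DNMT3B (0.856). Neighbors in this order did not overlap between libraries. In shPBRM1 libraries, DNMT3B (1.89 ± 0.217 CPM per kb) stood above TET1 (1.38 ± 0.133), with no overlap (SD, n = 3 each). By exon length, TET2 (3.53 ± 0.108) and TET3 (3.57 ± 0.127) could no longer be separated there, nor could TDG (13.4 ± 0.560) and UHRF2 (13.2 ± 0.150). By the longest transcript, both pairs stayed apart in shPBRM1 libraries. TET2 was then at 5.53 to 5.87 and TET3 at 3.69 to 3.94, and UHRF2 at 34.7 to 35.5 and TDG at 19.6 to 21.2 CPM per kb. With the longest transcript as the length, DNMT3B was again last in control and above TET1 in shPBRM1 libraries. DNMT3A and TET2 then overlapped in control libraries, and so did DNMT1 (39.94 to 41.95 CPM per kb) and UHRF2 (38.61 to 40.58).

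Genes that are highest in dividing cells were also higher in shPBRM1 libraries. Of 19 S-phase genes, 14 were higher and 1 was lower, with a median log2 fold change of 0.41. Of 10 mitosis genes, all were higher, with a median of 0.79. The share of all tested genes called higher was 31.5%. RRM1, a subunit of ribonucleotide reductase, rose by 0.98 and GINS1, a part of the replicative helicase, by 0.87 on the log2 scale, while the helicase subunit MCM6 fell by 0.22. AURKA, a mitotic kinase, and BIRC5, a survivin-encoding mitotic gene, rose by 1.12 and 1.02. The summed level of the S-phase list went from between 1319 and 1338 CPM to between 1630 and 1653 CPM, a ratio of 1.24, and that of the mitosis list from between 1288 and 1355 CPM to between 2325 and 2354 CPM, a ratio of 1.77. In bulk RNA, more cells in a phase and more RNA per cell cannot be told apart, and the part of these genes in the changes of the 9 genes was not tested.

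Set against the S-phase list of the same library, the 9 genes fell into different groups. DNMT3B was at 2.99 ± 0.214 counts per 1000 counts of the 19 S-phase genes in control and at 5.34 ± 0.573 in shPBRM1 libraries, a ratio of 1.79. TET3 and TDG were also higher on this scale, with ratios of 1.23 and 1.17 and no overlap between groups. The sum of the list gives most weight to its most abundant genes. Single S-phase genes ran from -0.22 (MCM6) to 0.98 (RRM1) in log2 fold change, with a median of 0.41. TET3 (0.61) and TDG (0.53) lay within that range. UHRF1 was at 52.2 ± 2.25 and 56.5 ± 0.242 counts, a ratio of 1.08, so it moved nearly as the S-phase list did. DNMT3A was lower, with a ratio of 0.947 and no overlap between groups, whereas the groups of TET1 overlapped. DNMT1, with a ratio of 0.845, UHRF2, with 0.721, and TET2, with 0.825, were also lower on this scale in every shPBRM1 library. Against 1000 counts of the mitosis list, DNMT3B alone was higher, at between 2.81 and 3.10 counts in control and between 3.36 and 4.22 in shPBRM1 libraries, and the other 8 genes were lower with ratios between 0.504 and 0.860. This scale was chosen after the values had been seen and is given without a test.

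**Figure D4:**
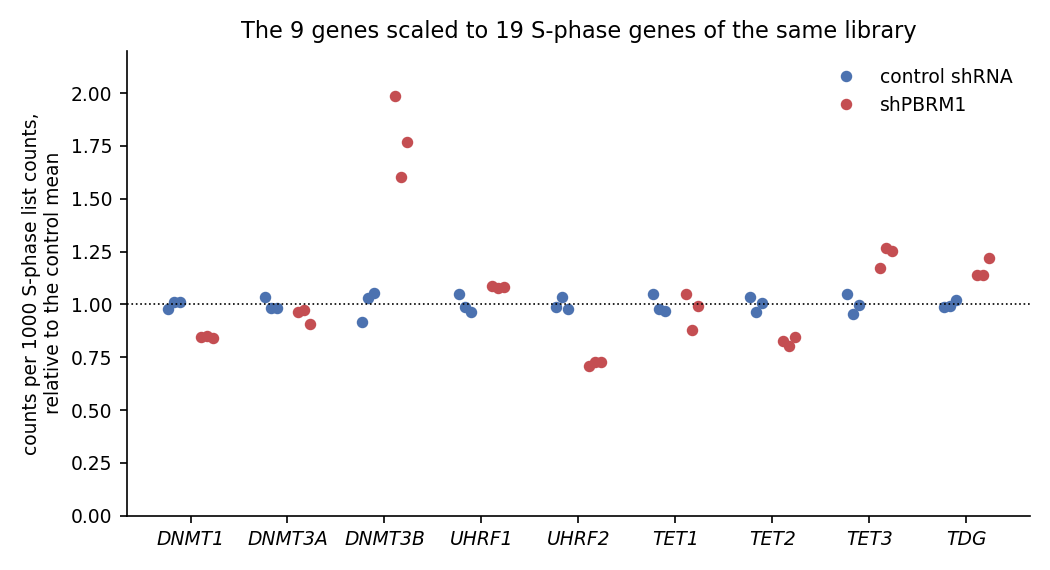
Counts of each gene per 1000 counts of the 19 S-phase genes in the same library, relative to the mean of the control libraries (dotted line at 1), for control shRNA (blue) and shPBRM1 (red) libraries. The shPBRM1 points of DNMT3B, TET3 and TDG lie above the control points, with mean ratios of 1.79, 1.23 and 1.17. Those of UHRF1 lie just above and those of DNMT3A just below. Those of DNMT1, UHRF2 and TET2 lie further below.

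Among the partners of DNMT1 and UHRF1, more of the called genes were higher than lower. Of 13 tested partner genes, 7 were higher, 1 was lower and 5 did not pass, where 64.7% of all tested genes were called, so the number called is near the background. Their median log2 fold change was 0.14. With library size only, 6 were higher and 3 lower, and in the GC-corrected fit 10 were higher and 1 lower, with a median of 0.38. PCLAF, which with ubiquitin marks left by UHRF1 helps to hold DNMT1 at replicated DNA, was at 160, 207 and 187 counts in control and at 599, 433 and 822 counts in shPBRM1 libraries, a log2 fold change of 1.48 (adjusted p = 2.77e-11, edgeR). CDCA7L, a relative of CDCA7, rose by 0.89. CDCA7, the partner of the remodeler HELLS, fell by 0.28 (adjusted p = 1.39e-05, edgeR), so this pair of related genes differed in direction. DNMT3L, the germline cofactor of the de novo enzymes, had 0 counts in every library.

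The genes for proteins that read methylated CpG were lower or did not pass, but this direction depended on the fit. Of 8 reader genes, 5 were lower and 3 did not pass, with a median log2 fold change of -0.25, whereas in the GC-corrected fit 4 were lower and 3 higher, with a median of -0.08. Of all tested genes, 33.2% were lower. MBD4, a reader that is also a thymine glycosylase like TDG, was at 62.2 ± 0.867 CPM in control and at 45.7 ± 2.31 CPM in shPBRM1 libraries (SD, n = 3 each), a log2 fold change of -0.44 (adjusted p = 4.74e-09, edgeR). ZBTB38, a zinc finger reader, fell by 0.32. Both were also lower in the GC-corrected fit, at -0.40 and -0.20. TDG and MBD4, both able to remove a mismatched thymine at CpG, thus moved in opposite directions.

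Of 14 tested genes of active demethylation and base excision repair, 8 were higher and 3 were lower, beside 31.5% higher and 33.2% lower among all tested genes. NEIL2, a glycosylase that acts after TDG, rose by 0.55 and PARP1, which senses strand breaks, by 0.31 on the log2 scale. GADD45A, a stress gene that has been linked to demethylation, fell from 38.9 ± 2.11 to 15.5 ± 1.07 CPM (SD, n = 3 each), a log2 fold change of -1.33 (adjusted p = 1.29e-14, edgeR). OGT, the sugar transferase that binds TET proteins, fell by 0.47. Of the genes that supply methyl groups or the TET cofactor 2-oxoglutarate, or that clear its inhibitors, 17 were tested. Of these, 7 were higher, 7 were lower and 3 did not pass, where 31.5% of all tested genes were higher and 33.2% lower. D2HGDH, which removes the TET inhibitor 2-hydroxyglutarate, fell by 0.77 on the log2 scale. SHMT1, of the folate cycle, and SDHB, a subunit of succinate dehydrogenase, rose by 0.54 and 0.45.

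**Figure D5:**
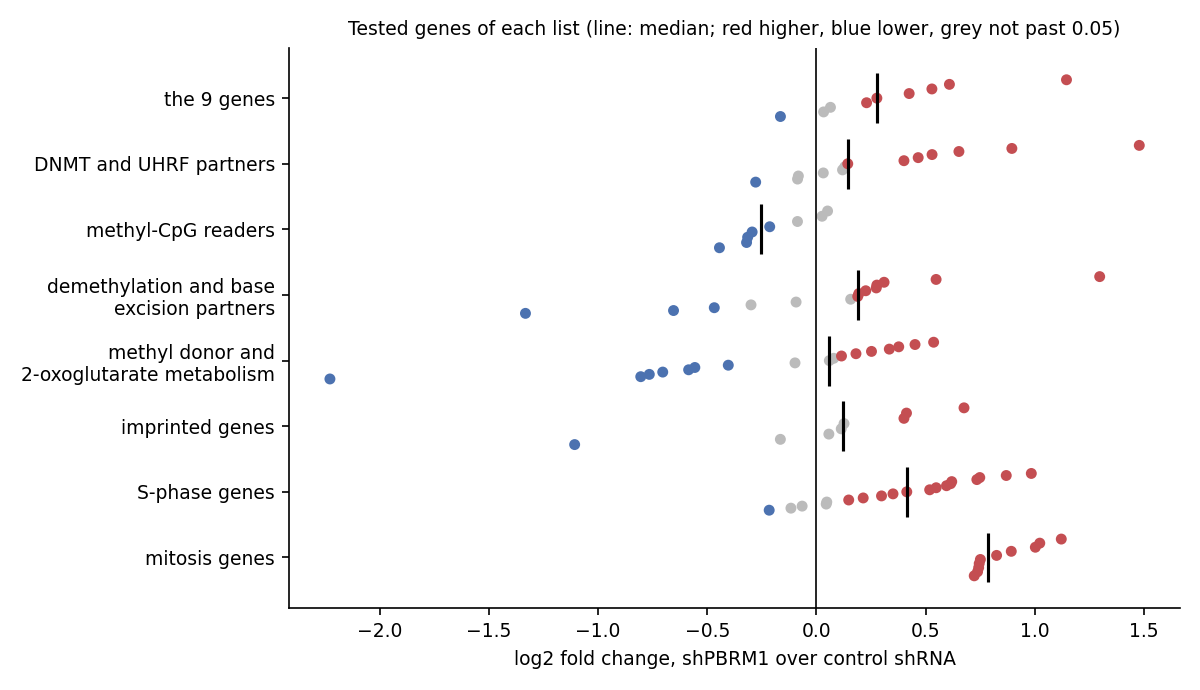
Log2 fold change of each tested gene in the lists of the methylation pathway and the cell cycle, with the list median as a line (red higher, blue lower, grey adjusted p of 0.05 or more, edgeR). All 10 mitosis genes and 14 of 19 S-phase genes lie right of 0 in red, and the 5 called methyl-CpG readers lie left of 0, whereas the GC-corrected fit, not drawn, gave 4 readers lower and 3 higher.

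Most of the listed genes whose silencing in somatic cells is known to depend on DNA methylation were hardly detected. The summed level of 30 germline genes was between 3.31 and 3.56 CPM in control and between 2.46 and 3.48 CPM in shPBRM1 libraries. HORMAD1 made up most of this sum, with means of 2.58 CPM in control and 2.22 CPM in shPBRM1 libraries. Of these germline genes, 15 had 0 counts in all 6 libraries, which allows up to 0.0804 CPM (3 counts) in a library by counting error, and 3 were tested. HORMAD1 and SYCP3 did not pass, and MAGEA3 was lower, with 14, 14 and 16 counts in control and 4, 6 and 0 counts in shPBRM1 libraries (adjusted p = 0.0033, edgeR). MAGEA3 has near-identical relatives, so its few reads are uncertain. Of 17 imprinted genes, 8 were tested. Of these, 3 were higher, 1 was lower and 4 did not pass, where 64.7% of all tested genes were called. In the GC-corrected fit 4 were higher and 2 lower, so the number called depended on the fit. GRB10, a growth factor receptor adaptor, fell from 123.4 ± 1.55 to 57.3 ± 1.64 CPM (SD, n = 3 each), a log2 fold change of -1.11 (adjusted p = 3.89e-18, edgeR). PEG10, a retrotransposon-derived gene, rose by 0.68 and KCNQ1OT1, an imprinted antisense RNA, by 0.41, but KCNQ1OT1 was lower in the GC-corrected fit, at -0.10 (edgeR adjusted p = 0.0258).

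The genes whose levels followed those of the members most closely were sought among 11540 tested genes (mean count of 100 or more), by the root mean square distance of centered log2 CPM over the 6 libraries. For DNMT3B they were ALDH9A1 (distance 0.0726), DNA2 (0.0811) and PCDHGA6 (0.0812). For UHRF2 they were CDC7 (0.0107), CCNT2 (0.0151) and MRPL17 (0.020). With 2 groups of 3 libraries, this likeness mostly restates a similar difference between the groups, which was 1.07, 1.01 and 1.04 on the log2 scale for the first 3 genes.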

How the data were processed

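The authors deposited raw read counts per gene symbol for 6 libraries of BT-549 cells, 3 per group, prepared from mRNA with a stranded kit. The submitters' processing notes name CASAVA 1.8.2, STAR 2.7.9a, featureCounts, DESeq2 1.24.0 and GRCh38.p7. The annotation and strand setting of the counting are not given in the sources used here, so reads of overlapping genes may be misassigned. Titles gave each sample its group and replicate number. Control columns carry no group name and were matched by the lack of shPBRM1 and by their last number.

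Counts were scaled by TMM, filtered by filterByExpr and tested with edgeR 4.0.16 in R 4.3.3 (quasi-likelihood F-test, Benjamini-Hochberg adjustment over 15450 genes). SE values and 95% intervals use the replicate spread of log2 CPM (2 added to every count). Totals of 36429395 to 65096297 counts set 3 counts at 0.0471 to 0.0804 CPM; such floors cover counting error only. Libraries of a group differed by more than counting noise (chi-square over degrees of freedom 4.66 to 22.6). Pairs with shPBRM1 replicate 1 gave 19.5 and 22.6, and the other pairs 4.66 to 6.86. Cells were cultured in triplicate, and whether the cultures came from separate experiments is not stated in the sources used here, so p-values measure only the spread between these cultures. Same-numbered libraries deviated together, with correlations of 0.733, 0.593 and 0.418 over 5622 genes (mean log2 CPM over 5). Control replicate 2 and shPBRM1 replicate 3 reached 0.464, above the third same-numbered pair. Replicate numbers were used as a block in alternatives only. The main fit, the SE values and the 95% intervals are unpaired. The 14 rows named with dates in place of symbols were kept.

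Positions, exon lengths and GC content came from GENCODE v29 (GRCh38), matched by symbol, and promoter windows from RefSeq (GRCh38.p14), with all 9 genes found. The 9 genes, the lists and the tests were chosen with earlier results of these data known. By rule the text names the 9 genes, PBRM1, up to 2 genes higher and 2 lower per list (largest change among those called, mean count of 100 or more, no overlap in CPM), germline or imprinted genes called past a fold of 2, and the 3 genes nearest in pattern to DNMT3B and UHRF2. DNMT3L, HORMAD1, SYCP3, cell type markers and overlapping, antisense or pseudogene rows were named after their values were seen. Alternatives were DESeq2 1.42.0, RLE factors, library size only, other filters, the replicate block, the block with GC and length correction (mgcv 1.9.3), each library left out, stricter thresholds and other gene lengths. Levels by longest transcript and the scale per S-phase or mitosis counts were added after seeing the data. A gene that the naming rule selects is not reported here. Scripts were tested on simulated counts.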

Additional observations from a re-analysis of the deposited data

How the results depend on the processing

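Of 291 values recomputed for 24 results, 278 counted as unchanged by the next rules. A fold change kept its sign and its side of the threshold, whatever its size, so DNMT3A at 0.46 in the GC-corrected fit, in place of 0.23, is among them. A share or ratio kept its sign and moved by less than the replicate SD. A count stayed within 1.5 times, whatever its split into higher and lower. DNMT3A, DNMT3B, UHRF1, TET1, TET3 and TDG were higher with an adjusted p under 0.05 (edgeR or DESeq2) in all 13 alternatives, and 7 of the 9 genes were called in each fit without 1 library. The replicate block gave DNMT3B 1.14 and UHRF1 0.42 on the log2 scale and changed no call among the 9 genes; it called 10199 of all genes, and 12 in place of 11 of the demethylation and base excision list. With the block and the GC and length correction, DNMT1 (0.289) and TET2 (0.188) were called higher and UHRF2 (-0.0288) was no longer called, and the reader list went from 5 lower to 4 lower and 3 higher; the cause was not tested. With library size only, TET2 was at -0.0162, and without 1 library each it was between 0.00 and 0.06. At a fold change over 2, 1 of the 9 genes and 1939 of all genes were called, in place of 7 and 10000. With a mean of at least 50 counts, 0 germline genes were called in place of 1 (edgeR), since MAGEA3, the gene called, fell under that filter. In raw counts the difference in the DNMT3B share was 1.48 percentage points, and with the longest transcript as length 2.01, in place of 3.10. For UHRF1 it was 9.03 in place of 10.1 with the longest transcript. The difference in the TET1 share was -0.24, but 0.11 in raw counts, 0.23 with the longest transcript and 0.45 without shPBRM1 replicate 2, the library with the lowest TET1 level of its group. Without 1 library each it ranged from -0.94 to 0.45.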
